A study of Mus musculus with 8 samples.

Results

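The replication-dependent histone genes encode the bulk of the proteins around which DNA is wound. The core histones H2A, H2B, H3 and H4 form the nucleosome, and the linker histone H1 binds where DNA enters and leaves it. These genes are small and lack introns as a rule, they sit in clusters, and they are switched on together when a cell enters S phase; NPAT, a protein that gathers at the clusters in the histone locus body, drives their transcription, and SLBP binds the stem-loop that their mRNAs carry in place of a poly(A) tail. The genes studied here were all protein-coding mouse genes whose older symbol starts with Hist1h, Hist2h, Hist3h or Hist4h, which gave 67 of the 21900 protein-coding genes of the RefSeq table. They comprised 6 H1, 18 H2A, 18 H2B, 12 H3 and 13 H4 genes, of which 54 belonged to Hist1 on chromosome 13, 10 to Hist2 on chromosome 3, 2 to Hist3 on chromosome 11 and 1 to Hist4 on chromosome 6. The symbols below are the newer ones of that table, and 4 linker histone genes of the newer style (H1f0, H1f7, H1f8 and H1f10) had older symbols outside the rule and were not members.

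Open chromatin was mapped with ATAC-seq, in which a transposase cuts and tags accessible DNA. The cells were type 1 conventional dendritic cells (cDC1s), known for cross-presenting antigen to CD8 T cells, and came by sorting from B16-OVA tumours in wild-type mice. B16-OVA is a melanoma line engineered to make ovalbumin, a standard test antigen. There were 4 libraries from day 21 and 4 from day 7 after tumour inoculation, and both groups shared the genotype, the tumour line and the sort. The age of the mice, and whether a library came from 1 tumour or from pooled tumours, are not stated in the labels, so the p values measure the spread between libraries, which may be partly technical.

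The deposited counts in regions summed to between 14021151 and 27737040 per library at day 21 and between 9440223 and 16063736 at day 7. Log2 CPM (counts scaled to each library's total) correlated at 0.947 to 0.966 among day 21 libraries, 0.926 to 0.951 among day 7 libraries and 0.891 to 0.929 between the days. Of 12 cDC1 marker genes, 11 were tested at their ends, and their summed level was 472.9 to 505.3 CPM at day 21 and 444.2 to 485.3 CPM at day 7. Of the 11, 3 rose and 1 fell, and 6 rose and 1 fell with factors from the gene-end sums. Markers of other cells that the sort could hold gave summed levels of 53.0 to 60.5 CPM at day 21 and 45.4 to 50.8 CPM at day 7 for 9 of 9 macrophage and monocyte genes, of which 3 rose and none fell. The levels were 65.1 to 79.9 CPM at day 21 and 71.9 to 82.1 CPM at day 7 for 6 of 10 T and NK cell genes (1 rose, 3 fell). For 5 of 8 melanoma genes they were 161.9 to 173.8 CPM at day 21 and 164.5 to 178.1 CPM at day 7 (1 rose, 2 fell), and for 4 of 6 stromal genes 10.1 to 11.02 CPM at day 21 and 11.5 to 15.6 CPM at day 7 (1 fell). The 4 B cell and 2 neutrophil genes tested gave no call. The part of these cells in the histone results was not tested. In sorted bulk cells, a region that is less open in every cell and a region that is open in fewer cells cannot be told apart.

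A gene's accessibility was the sum of the counts in all deposited regions that overlap 1000 bp on either side of either annotated gene end. By this measure 44 members had at least 1 region, all 44 were tested, and 23 members had none. The 44 drew on 62 distinct regions. Because the genes lie so close together, 22 of the regions served more than 1 member and 30 members shared a region with another member, so the members are not independent measurements. H2ac12 and H2bc12 had the same single region, as did H2ac8 and H2bc8, and the region of H2aw was shared with the neighbouring gene Trim17.

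The histone genes without a region were not scattered. All 10 Hist2 genes lacked one, and the table used here holds no region over 97.9 kb of chromosome 3 around them (chr3:96195315-96293197, mm10). Another 10 members, from H1f5 to H4bc24 in the first part of Hist1, lay in a stretch of 98.2 kb with no region (chr13:21753181-21851382). The remaining 3 were the linker histone gene H1f4 and the pair H2bc1 and H2ac1, which encode the H2B and H2A forms known from testis. By type, 2 of 6 H1, 8 of 18 H2A, 6 of 18 H2B, 4 of 12 H3 and 3 of 13 H4 genes had no region.

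Sequence copies were unevenly spread over these groups. RefSeq promoter windows (GRCm38.p6, 250 bases before to 50 after the start) existed for 62 members, 21 of the 23 without a region and 41 of the 44 with one. When each window was compared with those of all other members at shifts of up to 100 bases, 10 of the 21 without a region matched another member at 95% identity or more: H2bc23 and H4bc24 at 100%, H2ac23 and H2ac24 at 100%, H4c17 and H4c18 at 99.7%, H3c14 and H3c15 at 99.7%, and H2ac18 and H2ac19 at 95.8%. Among the 41 with a region, 2 did so, H4c11 and H4c12 with each other at 95.8%, and the median best match was 38.7%. The sources used here do not give how reads that fit several copies were counted, the values of H4c11 and H4c12 are therefore uncertain, and the part of sequence copies in the empty stretches was not tested. A region lay over the promoter window of 38 of the 62 members (61.3%) and of 57.8% of 17492 protein-coding genes.

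Summed over all members, accessibility did not differ between the days beyond the spread of the libraries. The 62 regions together held 866.2, 1025, 909.9 and 927.3 CPM in the day 21 libraries, against 916.1, 953.8, 939.7 and 935.1 CPM in the day 7 libraries. The means were 932.1 ± 67.1 CPM at day 21 and 936.2 ± 15.6 CPM at day 7 (SD, n = 4 each), a log2 ratio of -0.01 (SE 0.05). The day 21 libraries spanned the whole range of the day 7 libraries. Totals are described without a test.

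The same held for each histone type, with overlapping libraries throughout. A region that serves genes of several types is in the sum of each of them, so the type sums are not independent. The linker histone regions summed to 141.7 ± 9.90 CPM at day 21 and 135.8 ± 1.81 CPM at day 7. H2A regions summed to 325.4 ± 24.8 CPM at day 21 and 336.5 ± 9.81 CPM at day 7, and H2B regions to 391.1 ± 35.2 CPM at day 21 and 383.8 ± 7.15 CPM at day 7. For H3 the sums were 306.9 ± 25.3 CPM at day 21 and 305.8 ± 10.3 CPM at day 7, and for H4 they were 255.2 ± 16.1 CPM at day 21 and 258.7 ± 7.20 CPM at day 7 (SD, n = 4 each). No log2 ratio of a type was further from 0 than that of H1, at 0.06 (SE 0.05). When the scaling was taken from the gene-end sums alone, all members together came to a log2 ratio of 0.08 and H1 to 0.15.

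**Figure D1:**
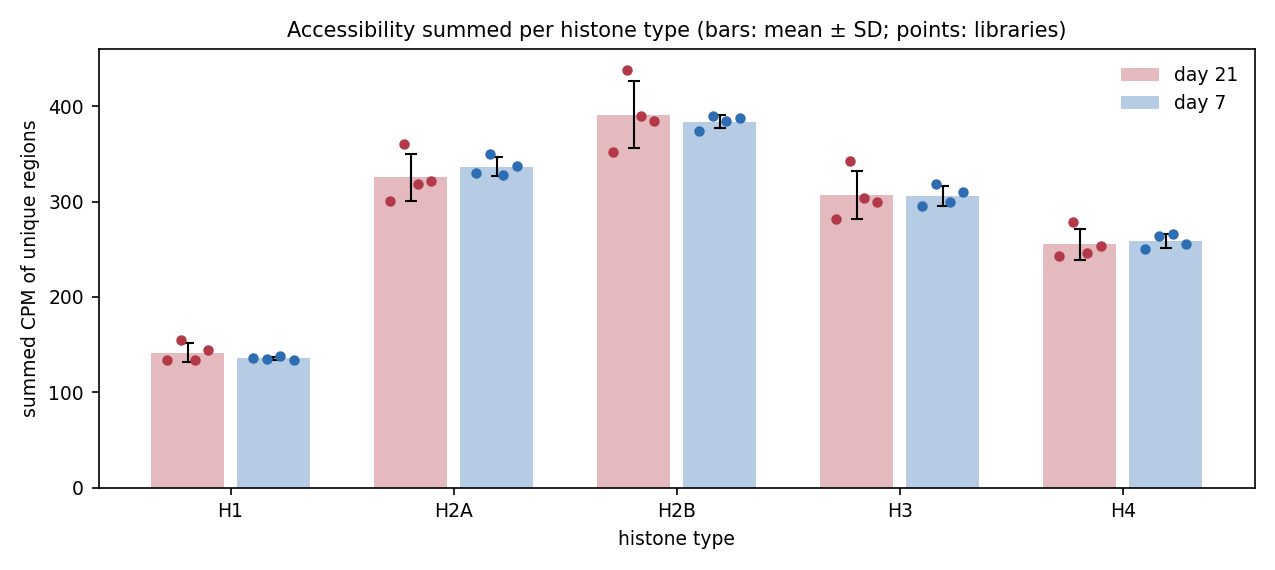
Summed CPM of the distinct regions at H1, H2A, H2B, H3 and H4 genes (bars, mean; error bars, SD; points, the 4 libraries of each day), day 21 beside day 7. A region that serves genes of several types is in the sum of each. For every type the day 21 and day 7 libraries overlap, and the day 21 points are the more widely spread.

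The libraries of the days overlapped in every cluster as well. Hist1 regions summed to 853.9 ± 63.1 CPM at day 21 and 852.1 ± 14.5 CPM at day 7. The Hist3 regions had 52.8 ± 4.24 CPM at day 21 and 55.6 ± 1.34 CPM at day 7, and the Hist4 regions had 25.4 ± 2.19 CPM at day 21 and 28.5 ± 1.77 CPM at day 7. Within Hist1, members fell into groups parted by more than 100 kb. The 29 genes from H4c8 to H1f1, spread over 233.4 kb, held most of the signal with 685.9 ± 52.3 CPM at day 21 and 673.7 ± 8.07 CPM at day 7. A group of 5 genes from H2ac12 to H2bc11 within 8.54 kb had 64.0 ± 5.38 CPM at day 21 and 72.1 ± 5.39 CPM at day 7, a log2 ratio of -0.17 (SE 0.08). Its libraries overlapped as well, at 59.1 to 71.2 CPM at day 21 and 67.9 to 80.0 CPM at day 7.

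Gene by gene, few members changed. Of the 44, 2 rose (H4c4 and H4c1), 5 fell (H3c8, H2ac10, H4c9, H2ac12 and H2bc12) and 37 did not pass the test, which is 15.9% called, against 31.3% of all 13572 gene ends tested. Over all gene ends 6.71% were higher and 24.6% lower at day 21. The median log2 fold change of the members was 0.03 (interquartile range -0.13 to 0.10), with 26 above 0 and 18 below, and that of all gene ends was -0.09. Day 21 and day 7 libraries lay apart in 6 members, against 26.5% of all gene ends. These were H3c8, H2ac10, H2ac12, H2bc12, H4c4 and H2bc6, the last of which did not pass (log2 fold change 0.23, edgeR adjusted p = 0.144). The annotated span of H2bc6 is 37455 bp, and none of the 3 regions in its sum lay over a promoter window of a member. A deposited region did lie over a promoter window of H2bc6, but it was not part of this sum. The direction of the counts depended on the scaling: with factors from the gene-end sums, which set the median of all gene ends to about 0, 8 members were higher and 3 lower, beside 12.3% higher and 12.1% lower of all gene ends, and loess-trended offsets also gave 8 and 3. The members higher under both of those scalings included H2bc13, H2ac13, H2bc7, H2ac7 and H3c1 besides H4c4 and H4c1, while H3c8, H2ac10 and H4c9 were lower under all of them. Regions are shared between H2bc13 and H2ac13, H2bc7 and H2ac7, H3c1 and H4c1, and H3c8 and H2ac10. The counts of members therefore cover fewer separate places.

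**Figure D2:**
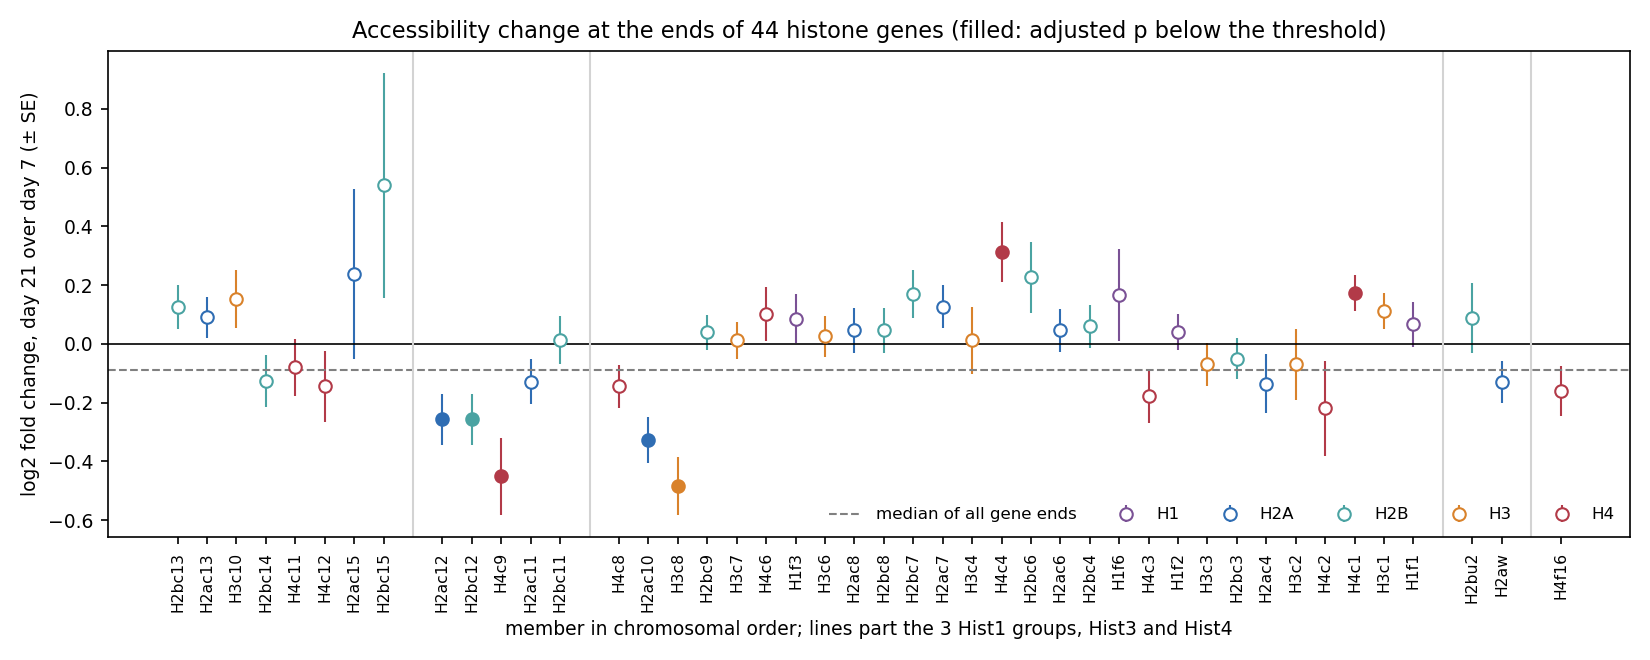
Log2 fold change of gene-end accessibility, day 21 over day 7, with its SE for the 44 tested histone genes in chromosomal order, coloured by histone type and filled where the adjusted p passed 0.05. Most genes lie within 0.2 of 0, above the dashed median of all gene ends at -0.09, and the called losses sit in 2 neighbourhoods, H2ac12 to H4c9 and H2ac10 to H3c8.

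The H3 gene H3c8 (older symbol Hist1h3g, chr13:23535418-23535909, plus strand) had the lowest fold change of all members. Its single region, centred 134 bp upstream of the annotated start, had 16.1, 16.9, 14.3 and 18.0 CPM in the day 21 libraries, against 23.8, 26.3, 20.2 and 21.9 CPM in the day 7 libraries. Every day 21 library was below every day 7 library. The log2 fold change was -0.48 ± 0.10 (SE, edgeR adjusted p = 0.0001271), and it passed under all 17 alternatives that could be run, with adjusted p up to 0.002304. Because H3c8 shares its only region with H2ac10, leaving out shared regions was not among the alternatives run for H3c8. The 250 bases before its start are shown because the region lies over them. Capitals mark matches to short motifs known from histone promoters, searched on both strands: 3 CCAAT boxes (CCAAT, the site bound by NF-Y) and none of the others (TATAAA, the octamer ATTTGCAT, the E2F letters GCGCGAAA or GCGGGAAA, the letters TTCGAA or TTTGAA that recur in cell cycle genes, and GGTCCG). No searched motif contains another.
H3c8 (chr13:23535168-23535417, plus strand, GRCm38.p6): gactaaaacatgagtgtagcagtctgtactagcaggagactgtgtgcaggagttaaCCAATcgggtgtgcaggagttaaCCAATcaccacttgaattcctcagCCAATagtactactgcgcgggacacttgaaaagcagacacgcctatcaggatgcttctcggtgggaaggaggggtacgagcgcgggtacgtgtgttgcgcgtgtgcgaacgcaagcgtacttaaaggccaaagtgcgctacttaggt

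The other 7 H3 genes tested did not pass, with log2 fold changes from -0.07 to 0.15, and the median of the 8 was 0.01. H3c1 (older symbol Hist1h3a) had the highest CPM of this type, with 87.5, 104.8, 94.1 and 84.2 CPM in the day 21 libraries and 77.6, 91.7, 87.1 and 86.4 CPM in the day 7 libraries. Its libraries overlapped, and its log2 fold change was 0.11 ± 0.06 (SE, edgeR adjusted p = 0.152). H3c1 had no region to itself. Most of its CPM came from the promoter region of the H4 gene H4c1, at 67.85 CPM at day 21 and 62.05 CPM at day 7. The rest came from a region shared with H1f1.

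Next to H3c8, the H2A gene H2ac10 (older symbol Hist1h2af, chr13:23533875-23534378, plus strand) had 29.3, 29.4, 24.9 and 30.5 CPM at day 21, against 36.6, 37.8, 36.6 and 33.0 CPM at day 7. The days did not overlap, and the log2 fold change was -0.33 ± 0.08 (SE, edgeR adjusted p = 0.001029). One of its regions was the H3c8 promoter region just described. With regions that serve several genes left out the adjusted p was 0.653, and the call was also lost with windows of 500 bp. The region over the H2ac10 promoter was at -0.08 and did not pass.

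H4 genes moved in both directions. Of 10 tested, 2 rose and 1 fell, the median was -0.14, and 3 had a log2 fold change above 0. That is 30% called, beside 31.3% of all gene ends (6.71% higher and 24.6% lower). H4c9 (older symbol Hist1h4i, chr13:22040960-22041362, minus strand) had 9.99, 8.90, 8.02 and 9.43 CPM at day 21, against 13.1, 14.1, 13.2 and 9.76 CPM at day 7. The groups overlapped through 1 library of each day, day 21 replicate 1 at 9.99 CPM and day 7 replicate 4 at 9.76 CPM. The log2 fold change was -0.45 ± 0.13 (SE, edgeR adjusted p = 0.005865), and windows of 2000 bp ended the call (adjusted p = 0.190).

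H4c4 (older symbol Hist1h4d, chr13:23581568-23581969, plus strand) had 19.0, 21.0, 16.9 and 21.1 CPM at day 21, against 15.1, 16.5, 14.8 and 16.6 CPM at day 7. All day 21 libraries were above all day 7 libraries, by a narrow margin at the lowest. The log2 fold change was 0.31 ± 0.10 (SE, edgeR adjusted p = 0.01419), and the call was lost without day 21 replicate 2, day 21 replicate 4 or day 7 replicate 3 (adjusted p up to 0.0831). H4c1 (older symbol Hist1h4a, chr13:23760795-23761249, minus strand), the H4 gene with the highest CPM, had 73.8, 84.4, 77.2 and 70.5 CPM at day 21, against 62.0, 73.0, 68.6 and 67.6 CPM at day 7. Its days overlapped, with a log2 fold change of 0.17 ± 0.06 (SE, edgeR adjusted p = 0.0246), and leaving out day 21 replicate 2 or 3 or day 7 replicate 1 or 4 ended the call (adjusted p up to 0.198). Both calls held under every scaling.

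**Figure D3:**
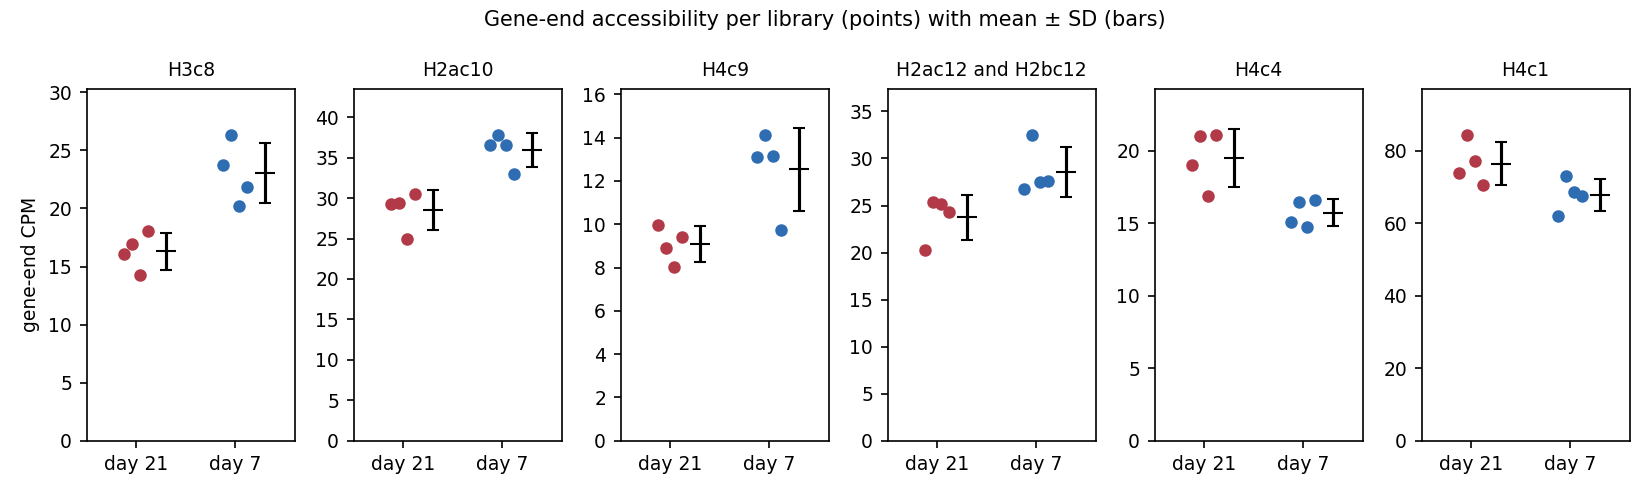
Gene-end CPM of the called histone genes in each library (points) with mean ± SD, day 21 left of day 7 in each panel. The day 21 points of H3c8 (14.3 to 18.0 CPM) lie below its day 7 points (20.2 to 26.3 CPM), and those of H4c4 (16.9 to 21.1 CPM) lie above its day 7 points (14.8 to 16.6 CPM).

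Promoter letters differed between the histone types, and among the called H4 genes. A CCAAT box stood in the 300-base windows of all 6 H1, all 18 H2A, all 16 H2B and all 10 H3 genes with an entry but in 3 of 12 H4 windows, against 42.3% of all 17492 promoters. GGTCCG, letters of the H4-specific element that the factor HINFP is known to bind in human cells, stood in 11 of 12 H4 windows, in 1 H2B and 1 H3 window, and in 11.99% of all promoters. This motif was added after the sequences had been read. Its first base lay 46 bases before the start at the median of the 11 H4 windows. H4c1 was the H4 gene without it and held 4 matches to the E2F letters (as TTTCCCGC, read on the other strand), which 2.098% of all promoters hold at all. The promoters of H4c9 and of the other H4 genes whose promoter region fell (H4c8 and H4c3, below) come first, with the same capitals. Those of H4c4 and H4c1, whose gene sums rose, follow. Their own promoter regions did not pass, at log2 fold changes of 0.25 for H4c4 (edgeR adjusted p = 0.132) and 0.13 for H4c1 (edgeR adjusted p = 0.181). In H4c8 the GGTCCG crosses the start and is cut off by the window's end.
H4c9 (chr13:22041363-22041612, minus strand, GRCm38.p6): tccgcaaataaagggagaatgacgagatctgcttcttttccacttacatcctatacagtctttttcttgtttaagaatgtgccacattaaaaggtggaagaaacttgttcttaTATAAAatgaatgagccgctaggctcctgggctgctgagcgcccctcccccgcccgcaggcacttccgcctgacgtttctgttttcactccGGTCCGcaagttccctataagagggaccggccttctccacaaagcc
H4c8 (chr13:23530794-23531043, plus strand, GRCm38.p6): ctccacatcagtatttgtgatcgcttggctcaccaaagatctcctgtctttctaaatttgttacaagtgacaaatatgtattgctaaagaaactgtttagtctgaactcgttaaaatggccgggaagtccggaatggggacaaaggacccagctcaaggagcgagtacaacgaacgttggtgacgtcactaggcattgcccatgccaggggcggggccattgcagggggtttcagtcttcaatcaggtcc
H4c3 (chr13:23698459-23698708, minus strand, GRCm38.p6): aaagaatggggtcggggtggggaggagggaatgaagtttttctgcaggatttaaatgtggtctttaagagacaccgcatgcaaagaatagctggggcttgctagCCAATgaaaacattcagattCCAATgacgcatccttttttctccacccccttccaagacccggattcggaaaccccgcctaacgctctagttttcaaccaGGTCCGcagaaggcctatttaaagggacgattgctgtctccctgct
H4c4 (chr13:23581318-23581567, plus strand, GRCm38.p6): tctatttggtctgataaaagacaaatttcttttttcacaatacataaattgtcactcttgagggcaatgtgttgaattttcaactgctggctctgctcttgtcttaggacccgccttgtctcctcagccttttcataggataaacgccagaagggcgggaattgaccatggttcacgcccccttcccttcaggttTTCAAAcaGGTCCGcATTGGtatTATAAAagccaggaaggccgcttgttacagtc
H4c1 (chr13:23761250-23761499, minus strand, GRCm38.p6): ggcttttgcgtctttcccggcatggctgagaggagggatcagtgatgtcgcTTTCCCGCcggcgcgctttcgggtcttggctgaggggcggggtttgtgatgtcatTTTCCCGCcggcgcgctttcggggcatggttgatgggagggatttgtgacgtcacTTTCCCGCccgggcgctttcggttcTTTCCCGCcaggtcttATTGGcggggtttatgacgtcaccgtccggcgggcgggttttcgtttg
A match is a description of the letters and does not show that a factor bound there.

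H2A and H2B genes often stand head to head with a promoter between them. The shared region of H2ac12 and H2bc12 (chr13:22035501-22035963) had 20.3, 25.4, 25.1 and 24.3 CPM at day 21, against 26.8, 32.5, 27.5 and 27.6 CPM at day 7. The days did not overlap, and the log2 fold change was -0.26 ± 0.09 (SE, edgeR adjusted p = 0.01908). This call was lost with either of the scalings that centre the gene ends and without day 21 replicate 1 or day 7 replicate 2 (adjusted p up to 0.170). The other 8 H2A genes beside H2ac10 and H2ac12 did not pass, nor did the other 11 H2B genes, and the medians were -0.04 over 10 H2A and 0.05 over 12 H2B genes. The promoter window of H2bc12, which runs back over the short gap between the genes into the start of H2ac12, holds CCAAT boxes in both directions and an octamer, all within the gap. Its TATA match lies inside the H2ac12 gene, and its E2F match lies across the H2ac12 start. The octamer stood in 7 of 18 H2A and 7 of 16 H2B windows, in no H1, H3 or H4 window, and in 1.898% of all promoters. Windows of head-to-head genes overlap, so some octamers count for both types. Those of H2ac12 and H2bc12, of H2ac8 and H2bc8, and of H2ac1 and H2bc1 are the same sites.
H2bc12 (chr13:22035571-22035820, plus strand, GRCm38.p6): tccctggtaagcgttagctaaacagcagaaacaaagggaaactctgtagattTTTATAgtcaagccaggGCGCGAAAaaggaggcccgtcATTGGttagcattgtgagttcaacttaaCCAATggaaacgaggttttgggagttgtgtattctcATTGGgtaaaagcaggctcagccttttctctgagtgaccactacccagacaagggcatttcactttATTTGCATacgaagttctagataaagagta

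The H2A and H2B genes with the highest CPM did not differ beyond their spread. H2ac7 (older symbol Hist1h2ad) had 49.1, 63.5, 53.0 and 50.5 CPM at day 21 and 43.3, 58.1, 44.01 and 52.6 CPM at day 7, with a log2 fold change of 0.13 ± 0.07 (SE, edgeR adjusted p = 0.190). H2bc9 (older symbol Hist1h2bh) had 64.6, 78.3, 74.7 and 73.4 CPM at day 21 and 71.7, 71.6, 70.9 and 69.5 CPM at day 7, with a log2 fold change of 0.04 ± 0.06 (SE, edgeR adjusted p = 0.659). Per kb of region, the scale on which genes can be compared, H2bc7 was the most accessible member, at 85.4 CPM per kb at day 21 and 76.0 CPM per kb at day 7, and the least accessible were H2ac15, at 6.61 CPM per kb at day 21 and 5.68 CPM per kb at day 7, and its neighbour H2bc15, at 8.16 CPM per kb at day 21 and 5.50 CPM per kb at day 7. The spans of both genes lie inside the empty stretch of Hist1, and their counts come from regions past the end of H2ac15, not from their promoters or bodies. The log2 fold change of H2bc15, 0.54, was the highest of all members, but at 1.42 CPM at day 21 and 0.958 CPM at day 7 it did not pass (edgeR adjusted p = 0.291).

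None of the 4 linker histone genes tested passed. Their log2 fold changes were 0.04 to 0.17, all above 0, with a median of 0.08. H1f2 (older symbol Hist1h1c), the highest of them in CPM, had 63.7, 65.5, 60.7 and 63.8 CPM at day 21 and 65.7, 62.1, 62.7 and 56.9 CPM at day 7, and its libraries overlapped. H1f6, which encodes the testis form of H1, had 1 region and a log2 fold change of 0.17 (edgeR adjusted p = 0.438). That region lies past the end of H1f6 and is shared with H4c3. It covers neither the H1f6 promoter window nor any of the H1f6 span.

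The small clusters gave no call either. H2bu2 (older symbol Hist3h2ba) had 10.7, 14.5, 14.9 and 13.8 CPM at day 21 and 11.2, 10.8, 13.8 and 14.5 CPM at day 7. H2aw (Hist3h2a) had 37.3, 42.8, 40.3 and 36.8 CPM at day 21 and 43.4, 43.8, 41.9 and 42.9 CPM at day 7, in the region shared with Trim17, and its log2 fold change was -0.13 ± 0.07 (SE, edgeR adjusted p = 0.155). H4f16 (Hist4h4), which stands alone on chromosome 6, had 26.4, 26.4, 22.2 and 26.8 CPM at day 21 and 26.2, 29.4, 28.1 and 30.2 CPM at day 7, with a log2 fold change of -0.16 ± 0.09 (SE, edgeR adjusted p = 0.138). In all 3 the days overlapped.

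Single regions gave a finer picture, because a gene's sum can hold a promoter region and its surroundings. Of the 62 regions, 3 rose and 5 fell, which is 12.9% called against 19.3% of all 121955 regions tested (9.49% higher and 9.85% lower), and 6 had no overlap between the days, against 19.8% of all regions. Split by place, a split made after the data had been seen, 32 regions overlapped a member's promoter window: 5 of these (15.6%) fell and none rose, with a median log2 fold change of -0.08. Another 26 regions lay outside the promoter windows, 18 of them centred past a gene's end, 5 upstream of a start and 3 within a gene: 3 of the 26 (11.5%) rose and none fell, with a median of 0.07. The remaining 4 regions touched members without a promoter entry and gave no call. At the ends of all genes the same split gave 3.9% higher and 23.7% lower of 8433 promoter regions (median -0.11), and 9.14% higher and 10.1% lower of 9210 regions outside them (median 0.01).

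The promoter regions that fell were those of H3c8, H4c9 and the pair H2ac12 and H2bc12, with the values given above, and those of H4c8 and H4c3, whose gene sums did not pass. The region over the H4c8 start (chr13:23530847-23531220) had 12.5, 13.3, 13.9 and 14.0 CPM at day 21, against 20.7, 14.9, 19.1 and 14.9 CPM at day 7. The days did not overlap, and the log2 fold change was -0.37 ± 0.11 (SE, edgeR adjusted p = 0.01398). This rested on day 7 replicates 1 and 3, the 2 high libraries, and leaving out either ended the call (adjusted p up to 0.116). The H4c3 promoter region (chr13:23698276-23698725) had 12.5, 17.9, 20.3 and 16.01 CPM at day 21, against 22.3, 21.9, 17.7 and 21.1 CPM at day 7. Its days overlapped, with a log2 fold change of -0.31 ± 0.11 (SE, edgeR adjusted p = 0.03352), and 6 of 14 alternatives ended the call: DESeq2 and leaving out day 21 replicate 1 or 4 or day 7 replicate 1, 2 or 4 (adjusted p up to 0.194). The promoter region of H4f16 was at -0.36 ± 0.13 (SE, edgeR adjusted p = 0.05016), just outside the threshold.

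By type, 3 of 10 H4 promoter regions fell, beside the 23.7% of all gene-end promoter regions that did, with a median log2 fold change of -0.25. The figures were 1 of 6 and a median of -0.13 for H3, and 1 of 5 and a median of 0.03 for the promoters that an H2A and an H2B gene share. Among the H4 promoters the change ran from -0.45 at H4c9 to 0.25 at H4c4. The difference between the types was not tested.

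Outside the promoters, the region of H4c1 that rose (chr13:23760076-23760341) was centred 586 bp past the gene's end and had 8.23, 8.90, 7.84 and 9.46 CPM at day 21, against 5.07, 5.95, 5.73 and 6.21 CPM at day 7. Every day 21 library was above every day 7 library, and the log2 fold change was 0.59 ± 0.16 (SE, edgeR adjusted p = 0.004185). A region centred 934 bp upstream of the H3c6 start (chr13:23563115-23563522) had 7.31, 11.5, 9.90 and 9.46 CPM at day 21, against 4.98, 7.44, 5.48 and 7.46 CPM at day 7. Its days overlapped through the lowest day 21 library, and the log2 fold change was 0.59 ± 0.16 (SE, edgeR adjusted p = 0.004401). Both held under all 14 alternatives run, with adjusted p up to 0.0318 for the region at H4c1 and 0.0410 for that at H3c6. The third, over the end of H2ac13 and on towards H3c10 (chr13:21716686-21717060), had a log2 fold change of 0.38 ± 0.14 (SE, edgeR adjusted p = 0.03685), and 9 of 14 alternatives ended its call: the replicate block, DESeq2, trended offsets and leaving out day 21 replicate 2, 3 or 4 or day 7 replicate 2, 3 or 4 (adjusted p up to 0.264).

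The balance between the places differed between the days in every library. Counts outside the promoter windows, as a percent of those over them, were 33.4%, 31.6%, 31.1% and 33.3% in the day 21 libraries, against 28.3%, 27.1%, 29.3% and 28.6% in the day 7 libraries, with no overlap. Over all gene ends the percentage was 42.5 ± 0.31 at day 21 and 39.8 ± 0.58 at day 7 (SD, n = 4 each), again with no overlap. Its level cannot be set directly beside that of the members, because regions at genes without a promoter entry count there as outside. The regions outside the members' promoters summed to 212.6 ± 13.1 CPM at day 21 and 192.9 ± 4.56 CPM at day 7, with every day 21 library above every day 7 library, and those over the promoters to 658.0 ± 48.8 CPM at day 21 and 680.9 ± 13.2 CPM at day 7, with overlap.

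**Figure D4:**
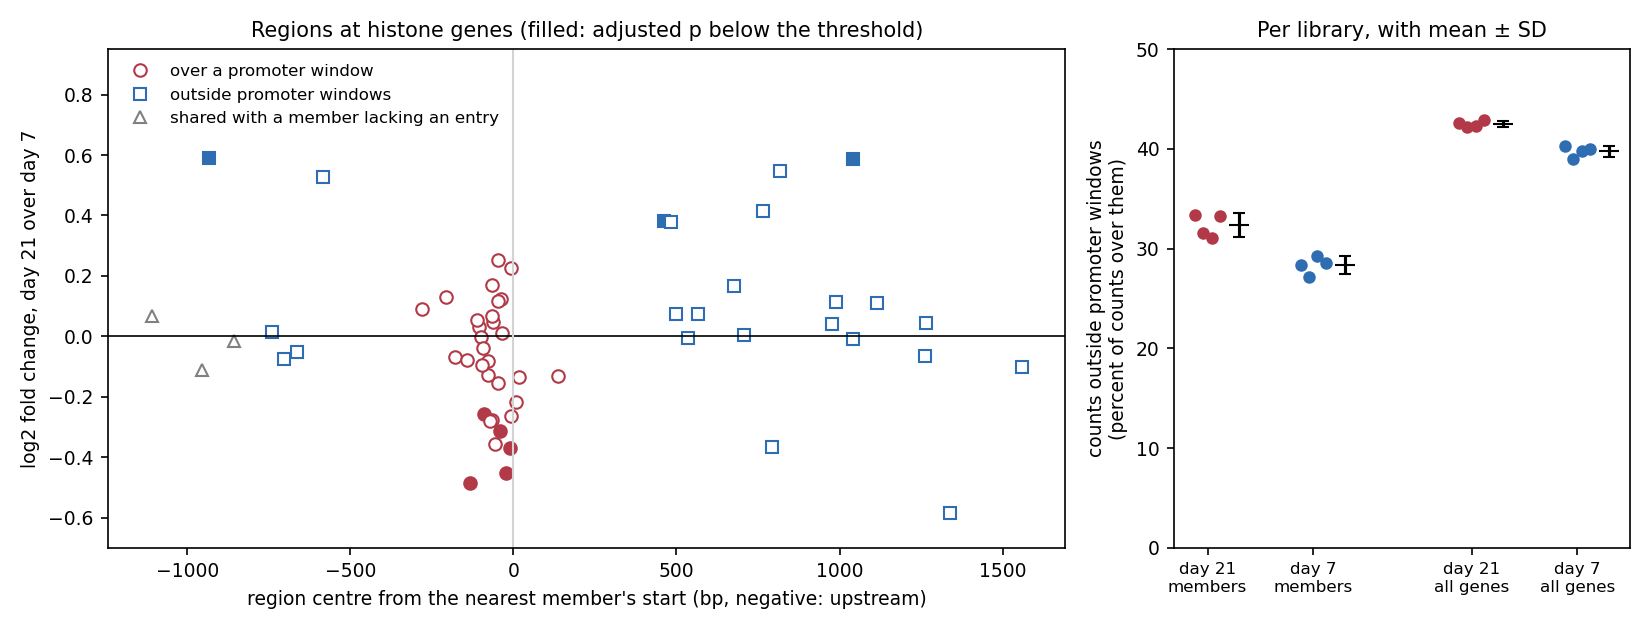
Left, log2 fold change (day 21 over day 7) of the regions at histone genes against the distance of the region's centre from the nearest member's start, filled where the adjusted p passed 0.05; 3 regions without a start entry or far from one are not drawn. Right, counts outside promoter windows as a percent of counts over them, per library with mean ± SD. For all genes, regions at genes without a promoter entry count as outside. The filled promoter points all lie below 0 and the filled points outside promoters all lie above it, and the day 21 libraries (31.1% to 33.4% at the members) lie above the day 7 libraries (27.1% to 29.3%).

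Genes that act on histone genes and histone proteins were read from the same fit. Among 22 genes of histone transcription and mRNA 3′ end processing, none rose and 6 fell, with a median log2 fold change of -0.15. Pou2f1, which encodes the octamer-binding factor Oct-1, had 92.2, 91.4, 95.5 and 85.2 CPM at day 21, against 102.6, 113.2, 104.9 and 106.6 CPM at day 7 (log2 fold change -0.23 ± 0.06 SE, edgeR adjusted p = 0.000869). Lsm11, a subunit of the U7 particle that cleaves histone mRNAs, had 28.0, 31.2, 32.1 and 33.3 CPM at day 21, against 32.1, 44.8, 42.2 and 37.8 CPM at day 7, and its log2 fold change was -0.32 ± 0.08 (SE, edgeR adjusted p = 0.001535). The other 4 were Ccne1, Sympk, E2f1 and Eri1. The master activator Npat did not pass, with 81.4, 89.6, 84.6 and 78.2 CPM at day 21 and 83.5, 96.6, 99.8 and 83.0 CPM at day 7. Nor did Slbp, with 51.2, 54.6, 57.5 and 50.5 CPM at day 21 and 61.3, 64.2, 56.0 and 55.0 CPM at day 7. Casp8ap2, whose product FLASH is a histone locus body protein, had 78.3, 90.0, 85.3 and 80.9 CPM at day 21 and 89.5, 88.2, 87.2 and 88.7 CPM at day 7 and did not pass. Their log2 fold changes were -0.12 for Npat (edgeR adjusted p = 0.125), -0.14 for Slbp (edgeR adjusted p = 0.0851) and -0.08 for Casp8ap2 (edgeR adjusted p = 0.288).

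Of 19 histone chaperone and import genes, none rose and 7 fell, with a median of -0.14. Ssrp1, a subunit of the FACT complex that moves H2A and H2B, had 75.6, 84.0, 80.7 and 81.8 CPM at day 21, against 97.4, 111.3, 108.1 and 98.4 CPM at day 7, with a log2 fold change of -0.36 ± 0.06 (SE). Npm1, nucleophosmin, had 48.4, 45.0, 40.1 and 37.8 CPM at day 21, against 58.2, 67.6, 51.3 and 52.6 CPM at day 7, with a log2 fold change of -0.42 ± 0.07 (SE). In both, no day 21 library reached a day 7 library. Atrx, Nap1l1, Anp32e, Rbbp4 and Asf1b were the others that fell. Of 16 S phase and proliferation genes, 15 were tested (Rrm2 was not), none rose and 6 fell, with a median of -0.17: Top2a, the topoisomerase that marks dividing cells, had 22.2, 25.0, 25.4 and 22.5 CPM at day 21, against 31.6, 32.1, 34.7 and 29.8 CPM at day 7. Mcm5, a subunit of the replicative helicase, had 48.1, 53.4, 48.7 and 46.1 CPM at day 21, against 57.4, 61.1, 57.3 and 60.4 CPM at day 7, and Mcm2, Mki67, Gmnn and Mcm6 fell as well. These counts stand beside the 24.6% of all gene ends that fell. With factors from the gene-end sums, 3 genes of the transcription list, 5 of the chaperone list and 2 of the S phase list fell, and 1 chaperone gene rose.

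Histone variants, which are also made outside S phase, moved both ways, with 2 of 8 tested higher and 2 lower. The shares over all gene ends were 6.71% higher and 24.6% lower. H2az1 (older symbol H2afz), the H2A.Z gene, had 170.8, 185.3, 186.8 and 171.5 CPM at day 21, against 141.3, 155.6, 154.7 and 156.0 CPM at day 7, a log2 fold change of 0.23 ± 0.05 (SE, edgeR adjusted p = 0.0003412) with no overlap. The value turned to -0.07 (adjusted p = 0.319) when regions that serve several genes were left out. H3f3a, an H3.3 gene, had 52.1, 61.6, 57.2 and 53.5 CPM at day 21, against 61.8, 65.1, 69.0 and 67.1 CPM at day 7 (log2 fold change -0.23 ± 0.06 SE, edgeR adjusted p = 0.003423), and with gene-end factors its adjusted p was 0.0535. H1f10 was the other variant that rose and H2az2 the other that fell, and its libraries overlapped. With gene-end factors 2 variants were higher and none was lower. H2ax, macroH2A2 and H3f3b were not tested.

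The chromosomal surroundings of the clusters were also described, as all other protein-coding genes within 500 kb. These counts stand beside the 6.71% of all gene ends that rose and the 24.6% that fell. Around Hist1, none of 22 tested genes rose and 1 fell, Carmil1, with a median log2 fold change of -0.02. Around Hist2, where no histone gene had a region, 27 neighbours were tested, 1 rose and 6 fell, with a median of -0.14. Around Hist3 the counts were 1 and 6 of 18, with a median of -0.18, and around Hist4 none and 2 of 12, with a median of -0.05. The Hist1 members, at a median of 0.04 over 41 genes, and their neighbours both lay above the median of all gene ends, and the difference was not tested.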

How the data were processed

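ATAC-seq was run on 8 libraries of intratumoral cDC1s, 4 from day 21 and 4 from day 7, and replicate numbers came from the labels. The authors deposited raw counts for 128057 regions of 1 shared set, 1 column per library. The submitters' processing notes name MACS2 2.1.0.20150603, bedtools, SAMtools, Picard 1.65 and cutadapt 1.9, and the builds mm10 and GRCm38. The sources used here do not give the aligner, the read filters, the treatment of reads that fit several places or any transposase shift. Regions had a median width of 364 bp.

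Gene positions and promoter sequences came from RefSeq tables of GRCm38.p6. The gene table gives ends but no exons, and a start was taken from the promoter table. Counts were summed per gene over regions overlapping 1000 bp around both ends for all 21900 protein-coding genes, of which 13723 had a region and 13572 passed filterByExpr. EdgeR 4.0.16 (R 4.3.3) scaled libraries with TMM factors from all regions (0.978 to 1.01), and glmQLFit and glmQLFTest were fitted with the day as the only term, with Benjamini-Hochberg adjustment over all genes tested and a threshold of 0.05. Single regions (121955) were tested likewise. Standard errors are the log2 fold change over the root of its F statistic, without sign. CPM are from edgeR on scaled totals. Each total counts a region once and has no test, and a region that serves several histone types enters the total of each. The test was checked on simulated counts.

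The members and gene lists were chosen with earlier results of these data known. Given per library are, for each histone type, the called members and the one with the highest CPM, all Hist3 and Hist4 members, 7 genes by name, and the 2 genes with the smallest p of each of the 4 related lists. Alternatives were DESeq2 1.42.0, its size factors, TMM factors from gene-end sums, loess-trended offsets, no filter, thinning, other windows, unshared regions, a replicate block and leaving out each library.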

Additional observations from a re-analysis of the deposited data

Results flagged for a closer look

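Among 112 sets of 4 libraries of 1 day, covering the tested members and the totals, 8 had a library far from the other 3. Chance flags about 1 in 20 such sets. At day 21, 1 library was low for H2ac15, at 1.81 CPM against 2.602 to 2.70 CPM in the others. Likewise H1f6 had 6.05 CPM in 1 day 21 library, against 7.94 to 8.25 CPM in the others. H4f16, which is the whole of Hist4, had 22.2 CPM in 1 day 21 library, against 26.4 to 26.8 CPM in the others, and so did the Hist4 total, at 22.2 CPM. At day 7, 1 library was low for H2bc13, at 32.1 CPM against 35.2 to 35.4 CPM. The shared region of H2ac12 and H2bc12 was high in day 7 replicate 2, at 32.5 CPM against 26.8 to 27.6 CPM, and the call of both genes was lost without that library. The total from H4c8 to H1f1 was low in 1 day 7 library, at 661.6 CPM against 677.3 to 677.9 CPM.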

How the results depend on the processing

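Scaling had the widest effect. With factors from the gene-end sums, 8 members were higher and 3 lower in place of 2 and 5, the related lists had 10 lower and the neighbours 9, and the log2 ratios of the totals were 0.083 for all members, 0.151 for H1, 0.041 for H2A, 0.070 for H4, 0.092 for Hist1 and 0.013 for Hist3. With trended offsets, 8 members were higher and 3 lower, with 8 lower in the related lists and 9 lower neighbours. With regions that serve several genes left out, 1 member was lower, 1 gene of the related lists was higher, the H2A total was at -0.143 and the Hist3 total at 0.096, and H2az1 turned to -0.072; the Hist3 total was also 0.096 without the region of a non-histone gene. Windows of 2000 bp gave 4 higher genes in the related lists, 5 higher neighbours and 0.016 for Hist3, and windows of 500 bp gave 1 higher neighbour. Fewer genes were tested without shared regions, and otherwise the cause was not tested. DESeq2, its size factors, no filter and thinning moved no count of calls by more than 1.5 times and no total by more than 1 SD.

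Leaving out 1 library at a time gave 0 to 4 higher and 3 to 6 lower members, 2 to 3 higher and 3 to 6 lower regions, 1 to 2 higher and 15 to 29 lower genes of the related lists, and 2 to 3 higher and 12 to 18 lower neighbours. The log2 ratios of the totals then ran from -0.062 to 0.030 for all members, 0.011 to 0.092 for H1, -0.107 to -0.010 for H2A, -0.038 to 0.077 for H2B, -0.058 to 0.047 for H3, -0.071 to 0.007 for H4, -0.054 to 0.040 for Hist1, -0.124 to -0.029 for Hist3 and -0.201 to -0.116 for Hist4. Same-numbered libraries of the days deviated together by correlations of 0.0044 to 0.0096, and differently numbered ones by -0.0114 to 0.0134. No pairing by number was seen, but values this near 0 over many low-count regions cannot exclude one. The fit with the replicate block gave 2 higher and 5 lower members, 2 higher and 6 lower regions, 2 higher and 28 lower genes of the related lists and 2 higher and 15 lower neighbours. At the least open members, such as H2bc15, counts limit what change could be seen.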
